A study of Mus musculus with 6 samples.

Results

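The genes described here make the cell's ribosomes: 35 listed genes that encode nucleolar proteins, factors that process ribosomal RNA (rRNA), and RNA polymerase I with its initiation factors. They were chosen by name, and each was read by its brightest probe set on average. All 35 had a probe set that carried 1 gene symbol, and 33 had a mean above the filter on dim probe sets, log2 5.12. They stand among 13232 tested genes of 18192 on the array. The other 2, Polr1b and Rrp12, are given by level only.

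RNA came from bone marrow cells sorted as positive for Ter-119, a red cell lineage marker, and for CD71, which takes up transferrin, and was read on 6 one-colour Affymetrix mouse arrays. The 3 Rb-null arrays carry the genotype EpoR-GFPcre/+; Rb fl/fl, and the 3 control arrays carry EpoR-GFPcre/+; Rb fl/+. Both groups thus share a GFPcre allele at the erythropoietin receptor locus, which restricts Cre to cells that use that locus, and controls keep 1 Rb allele that is not floxed. The labels state no age or sex, and do not say that each array is another animal. The p-values therefore rest on the spread among these 6 samples, and that spread could be technical.

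Ribosome production begins in the nucleolus, where RNA polymerase I copies the rRNA genes into a long precursor. Small nucleolar RNAs (snoRNAs) bound to box C/D and box H/ACA proteins guide chemical changes on that precursor, and assembly factors cut, fold and export the subunits. The pathway is busiest in proliferating erythroid progenitors and winds down as red cells mature. Faulty ribosome production causes Diamond-Blackfan anaemia, in which free ribosomal proteins bind Mdm2 and release p53. In cultured cells the Rb protein is known to bind Ubtf, the factor that opens the rRNA genes, and to hold back RNA polymerase I.

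None of these genes passed the test between Rb-null and control cells, which does not show that they differed little. The 95% intervals of the log2 fold change, Rb-null over control, were wide for many members. Examples are -1.92 to 0.83 for Rrs1 and -1.29 to 0.85 for Npm1, while that of Ddx18 was narrower, -0.56 to 0.65. Limma called 0 of the 33 tested members at an adjusted p under 0.05, and 0% of all tested genes (lowest adjusted p of a member 1.00). At an unadjusted p under 0.05 there were 2 higher members, Nop56 and Taf1d, where 2.55% of all tested genes stood, and 0 lower, where 1.51% stood (4.06% in either direction). The members' log2 fold changes, Rb-null over control, ran from -0.73 for Nhp2 to 1.56 for Taf1d. Of the 33, 13 were higher and 20 lower in Rb-null cells, 39.4% higher against 45.4% of all tested genes. Their median log2 fold change was -0.11, beside -0.04 over all tested genes. Without Rb-null replicate 3 it was -0.03, beside -0.06 over all genes, and 16 of 33 members (48.5%) were higher against 42.0% of all genes, so the order of these shares turned. Without control replicate 2 the median was -0.07, beside -0.06 over all genes. Pair medians, Rb-null minus control array of the same replicate number, were -0.19, -0.03 and -0.10. The sign was the same in all 3 pairs for 7 higher and 8 lower members, where 18.4% and 24.1% of all tested genes stood. With the replicate number as a block, 4 members were higher and 1 lower at an unadjusted p under 0.05, where 7.77% and 9.14% of all tested genes stood, and limma again called 0.

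**Figure D1:**
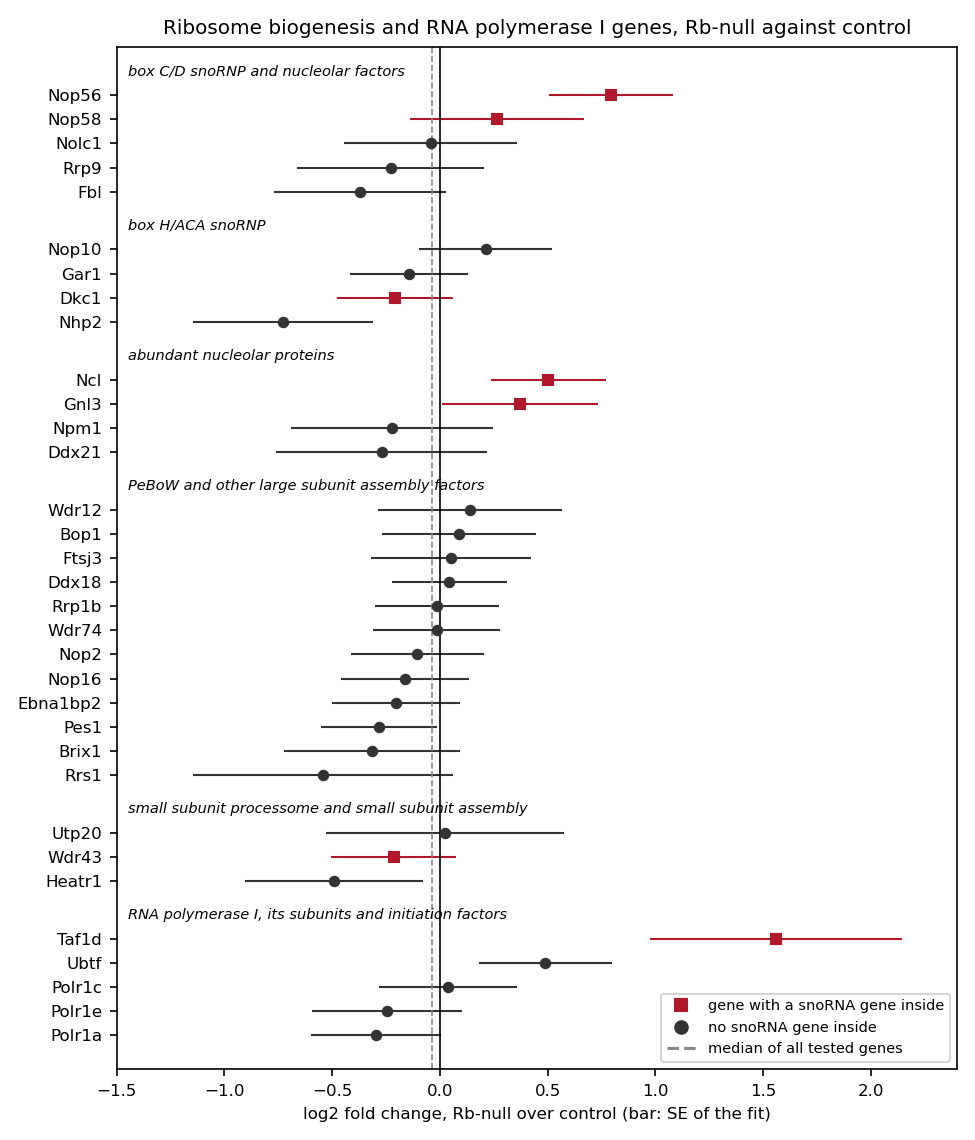
Log2 fold change, Rb-null over control, for the 33 tested members in 6 role classes, with the standard error of the fit over 3 Rb-null and 3 control arrays as bars. Squares mark genes that contain a snoRNA gene, circles those that do not, and the dashed line is the median of all tested genes, -0.04. Taf1d and Nop56 lie farthest right and Nhp2 farthest left, and none passed the limma test.

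The 18S rRNA control probe sets averaged 47.1, 63.7 and 542 on Rb-null arrays 1, 2 and 3. On control arrays 1, 2 and 3 they averaged 32.6, 66.2 and 1231. Both arrays numbered 3 were thus high for 18S signal. Their median deposited intensity was the lowest, 24.5 and 23.3, against 28.9 to 31.2 on the other arrays. The 18S signal moved with replicate number, its source was not tested, and it is not taken here as a measure of ribosome output. The ratio of 3′ to 5′ actin signal, a sign of RNA quality, was 1.43, 1.098 and 1.01 on Rb-null arrays, against 1.67, 1.15 and 1.18 on control arrays. It was lower on the Rb-null array of each pair, and its part in the results was not tested. The sorted cells carried erythroid markers, of which 8 of 10 had a usable probe set. Their summed intensities were 33892 to 40349 on Rb-null and 33307 to 35365 on control arrays. Among them Epor, the locus that carries the GFPcre allele, read 248, 2228 and 558 on Rb-null arrays 1, 2 and 3. On control arrays it read 2221, 266 and 609. Its pair differences were -3.24, 2.96 and -0.14, in opposite directions for pairs 1 and 2, and the cause was not tested. Markers of granulocytes (15 of 18) summed to 28060 to 57494 against 38170 to 57141, of macrophages (12 of 12) to 1414 to 1820 against 1757 to 2940, and of B cells (9 of 10) to 352 to 547 against 575 to 909. Markers of T and NK cells (8 of 10) summed to 416 to 577 against 505 to 564, of megakaryocytes (6 of 7) to 322 to 376 against 346 to 561, and of mast cells, basophils and eosinophils (6 of 7) to 149 to 1183 against 171 to 1395. No marker was at 0 on any array. Among tested markers 14 of 15 granulocyte and 7 of 8 B cell genes were lower in Rb-null cells, and their part in the results below was not tested. In bulk RNA, fewer cells of a type and less RNA per cell cannot be told apart.

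The promoters of Taf1d, Nop56 and Ncl, the members whose groups did not overlap after scaling, and of Nhp2, the member with the lowest fold change, are shown here because E2F factors, which Rb is known to hold back, act through such regions. The 250 bases before the start were taken from RefSeq, build GRCm38.p6, for Taf1d (chr9:15305964-15306213, plus strand), Nop56 (chr2:130274162-130274411, plus strand), Ncl (chr1:86359456-86359705, minus strand) and Nhp2 (chr11:51619523-51619772, plus strand), each written 5′ to 3′ in the gene's direction. Capitals mark E2F-type letters, GGCGGGA or TTTGGCG on either strand.
Taf1d: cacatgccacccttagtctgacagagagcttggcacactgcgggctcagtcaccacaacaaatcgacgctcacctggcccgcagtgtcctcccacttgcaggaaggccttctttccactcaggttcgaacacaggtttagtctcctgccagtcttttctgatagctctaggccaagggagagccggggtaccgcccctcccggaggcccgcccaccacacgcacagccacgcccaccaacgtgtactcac
Nop56: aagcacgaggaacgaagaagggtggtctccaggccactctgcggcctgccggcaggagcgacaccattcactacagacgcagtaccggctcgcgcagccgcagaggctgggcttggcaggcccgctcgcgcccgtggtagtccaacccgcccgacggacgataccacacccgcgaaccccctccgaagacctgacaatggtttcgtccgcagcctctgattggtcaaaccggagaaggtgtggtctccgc
Ncl: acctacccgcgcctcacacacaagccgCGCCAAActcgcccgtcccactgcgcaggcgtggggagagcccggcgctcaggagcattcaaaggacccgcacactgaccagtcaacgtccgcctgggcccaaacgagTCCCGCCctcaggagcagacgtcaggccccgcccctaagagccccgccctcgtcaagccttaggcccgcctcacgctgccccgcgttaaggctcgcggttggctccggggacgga
Nhp2: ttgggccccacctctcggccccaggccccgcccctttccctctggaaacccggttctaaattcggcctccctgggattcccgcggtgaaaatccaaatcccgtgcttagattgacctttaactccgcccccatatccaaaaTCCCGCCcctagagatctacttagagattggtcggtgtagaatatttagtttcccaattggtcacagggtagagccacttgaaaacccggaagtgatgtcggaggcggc
Ncl held both E2F-type motifs and Nhp2 held 1, whereas Taf1d and Nop56 held none, nor the E-box CACGTG that Myc binds with Max, nor the TATA box TATAAA. RefSeq promoters of 300 bases, 250 before and 50 after the start, were found for 30 of the 35 members. By gene, GGCGGGA was present in 6 of the 30 members (20%) and 12.7% of all genes, and TTTGGCG in 2 (6.67%) and 1.77%. CACGTG was present in 4 members (13.3%), namely Nop2, Pes1, Utp20 and Wdr43, and in 8.09% of all genes. TATAAA was present in 2 (6.67%) and 15.7%. These are matches of letters in a window and carry no information on binding.

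Box C/D proteins carry out ribose methylation of rRNA, and their members did not share a direction. Nop56, a core scaffold of the particle, read 244, 269 and 171 on Rb-null arrays 1, 2 and 3, against 112, 190 and 85.9 on control arrays. Each Rb-null array read above the control array of its number, although the deposited ranges overlapped because control array 2 lay above Rb-null array 3. The means were 228 ± 50.7 in Rb-null and 129 ± 54.5 in control cells (SD, n = 3 each), 1.73-fold (log2 0.79, SE 0.29, 95% interval 0.14 to 1.45, limma adjusted p = 1.00). The replicate block gave an SE of 0.18 and a limma adjusted p of 0.142. A second, dimmer Nop56 probe set had 0.46 (SE 0.31). Nop58, its partner, was higher in each pair at 0.26 (SE 0.41), but had -0.04 without Rb-null replicate 2. Fbl, the methyltransferase fibrillarin of the same particle, read 137, 373 and 148 on Rb-null arrays, against 176, 408 and 237 on control arrays. It was lower in each pair, at -0.37 (SE 0.40), and the group ranges overlapped widely. The remaining factors lay nearer 0, with Rrp9, which marks the snoRNP that starts small subunit processing, at -0.23 (SE 0.43) and Nolc1, a chaperone of snoRNPs, at -0.04 (SE 0.40).

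Box H/ACA proteins convert uridine to pseudouridine in rRNA and also belong to telomerase. Nhp2, an RNA-binding member, had the lowest fold change of the 33. It read 112, 238 and 59.97 on Rb-null arrays 1, 2 and 3, against 200, 345 and 126 on control arrays. The Rb-null array was the lower in each pair, yet the spread between replicate numbers exceeded the difference and the ranges overlapped. The log2 fold change was -0.73 (SE 0.42, 95% interval -1.68 to 0.22, limma adjusted p = 1.00), and a second probe set had -0.47 (SE 0.54). With the replicate number as a block the SE was 0.16 and the limma adjusted p 0.138. Dkc1, the pseudouridine synthase dyskerin, read 180, 226 and 152 in Rb-null cells, against 172, 271 and 209 in control cells, with no order between the groups (-0.21, SE 0.27). Gar1 at -0.14 (SE 0.27) and Nop10 at 0.21 (SE 0.31) completed the particle, so 1 of its 4 proteins was higher and 3 lower.

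The abundant nucleolar proteins split evenly. Ncl, nucleolin, which binds rRNA precursors and helps transcribe them, read 1904, 2156 and 1628 on Rb-null arrays, against 1126, 1767 and 997 on control arrays. It was higher in each pair, and here too control array 2 reached above Rb-null array 3. Its means were 1896 ± 264 in Rb-null and 1297 ± 412 in control cells (SD, n = 3 each), 1.42-fold (log2 0.50, SE 0.27, limma adjusted p = 1.00), and further Ncl probe sets had 0.57, 0.33 and 0.07. For the brightest Ncl probe set the replicate block gave an SE of 0.17 and a limma adjusted p of 0.251. Gnl3, nucleostemin, a GTPase of proliferating cells, read 154, 226 and 82.1 in Rb-null cells, against 133, 154 and 57.3 in control cells. It was higher in each pair (0.37, SE 0.36), with a larger distance between replicate numbers than between genotypes. Npm1, nucleophosmin, a chaperone of ribosome assembly, read 699, 1191 and 263 in Rb-null cells, against 849, 991 and 386 in control cells. Its direction differed between pairs, its log2 fold change was -0.22 (SE 0.47), and without Rb-null replicate 3 it was 0.24. The helicase Ddx21 had -0.27 (SE 0.49).

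**Figure D2:**
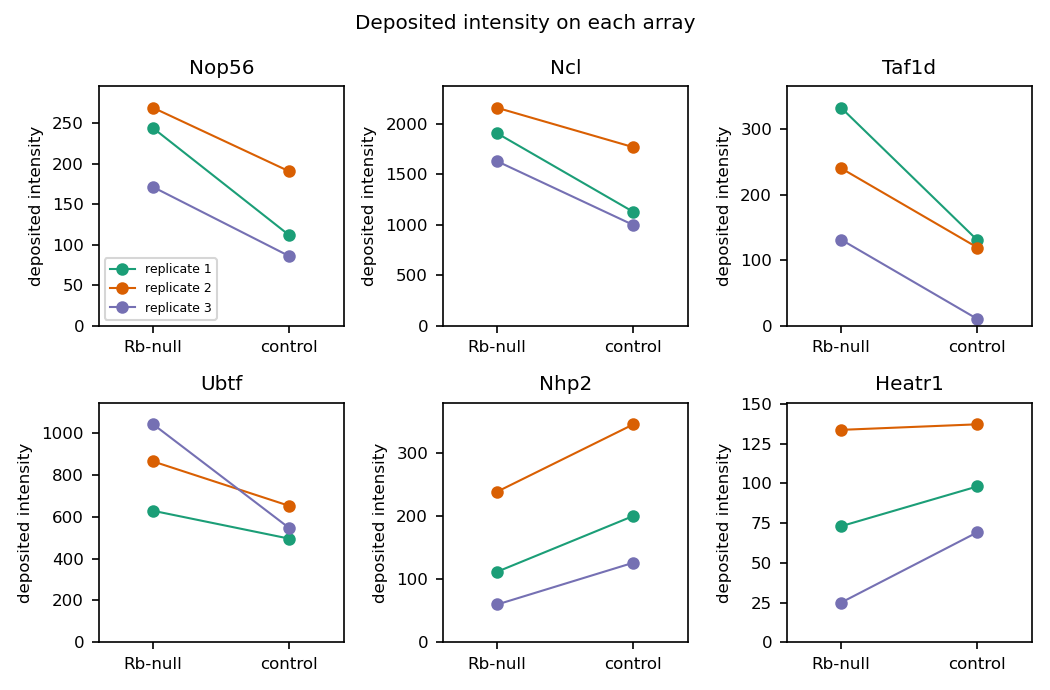
Deposited intensity of 6 members on each array, Rb-null at left and control at right, with a line joining the arrays of the same replicate number and axes that start at 0. The lines of Nop56, Ncl, Taf1d and Ubtf slope down toward control and those of Nhp2 and Heatr1 slope up, while arrays numbered 2 lie highest in both groups for all but Taf1d and Ubtf.

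Of 12 tested factors of the large subunit, 4 were higher and 8 lower, from -0.54 for Rrs1 to 0.14 for Wdr12, with a median of -0.06. The PeBoW complex, in which Pes1, Bop1 and Wdr12 act together on the precursor of the large subunit, gave -0.28 (SE 0.27), 0.09 (SE 0.36) and 0.14 (SE 0.43). Pes1 read 46.1, 70.8 and 45.3 in Rb-null cells, against 65.2, 93.0 and 53.5 in control cells, lower in each pair with overlapping ranges. Rrs1, which brings the 5S particle into the subunit, read 37.3, 131 and 6.0 in Rb-null cells, against 94.0, 91.3 and 26.9 in control cells. Pairs 1 and 3 were lower and pair 2 higher, so its fold change of -0.54 (SE 0.60) lay within the spread. It was 0.07 without Rb-null replicate 3, and its other probe set had 0.06 (SE 0.34). Brix1 had -0.32, Ebna1bp2 -0.20, Nop16 -0.16 and Nop2, an rRNA methyltransferase, -0.11. Wdr74, Rrp1b, Ddx18 and Ftsj3 lay between -0.02 and 0.05.

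The small subunit processome cuts and folds the small subunit rRNA as it is made. Heatr1, a large scaffold that also supports RNA polymerase I transcription, read 73.1, 134 and 25.1 in Rb-null cells, against 98.1, 137 and 69.3 in control cells. It was lower in each pair, by little in pair 2, and had -0.49 (SE 0.41, limma adjusted p = 1.00). Without Rb-null replicate 3 this was -0.06, and its second probe set had -0.11 (SE 0.25). Wdr43, a subunit that joins early, read 165, 171 and 167 in Rb-null cells, against 229, 156 and 210 in control cells (-0.22, SE 0.29). Utp20 had 0.02 (SE 0.55) and read from 9.4 to 89.9 on the Rb-null arrays alone. Rrp12, an export factor, stayed dim at 5.0 to 22.7 over all arrays.

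RNA polymerase I and its initiation factors gave 5 tested members, 3 higher and 2 lower. Taf1d, a subunit of the SL1 complex that places the polymerase on the rRNA promoter, read 333, 241 and 132 on Rb-null arrays 1, 2 and 3, against 131, 120 and 10.5 on control arrays. Every Rb-null array lay above every control array, the closest by a narrow margin, and control array 3 was the lowest by far. Its means were 235 ± 101 in Rb-null and 86.9 ± 66.4 in control cells (SD, n = 3 each), 2.95-fold (log2 1.56, SE 0.58, 95% interval 0.23 to 2.89, limma adjusted p = 1.00). The replicate block gave an SE of 0.33 and a limma adjusted p of 0.136. Without control replicate 3 the log2 fold change was 0.83. The other Taf1d probe sets past the filter gave 0.42, 0.32 and 0.13 (SE 0.26, 0.27 and 0.33), so the size rests on 1 probe set. Under the replicate block with trend and robust moderation Taf1d came nearest to a call of any member (limma adjusted p = 0.0526), where 3.57% of all tested genes were called.

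Ubtf, the factor that keeps rRNA genes open, read 628, 863 and 1040 on Rb-null arrays, against 495, 651 and 545 on control arrays. It was higher in each pair, and the ranges overlapped only where Rb-null array 1 lay below control array 2. The log2 fold change was 0.49 (SE 0.31, 95% interval -0.21 to 1.19, limma adjusted p = 1.00), and a second probe set had 0.28 (SE 0.43). For the brightest Ubtf probe set the replicate block gave an SE of 0.18 and a limma adjusted p of 0.273. Subunits of the polymerase had smaller or lower values, and their difference from Taf1d and Ubtf was not tested. Polr1a, the largest subunit, read 26.0, 50.5 and 16.9 in Rb-null cells, against 36.3, 48.0 and 34.1 in control cells (-0.30, SE 0.30). Its dimmer probe sets had the other sign, 0.03 (SE 0.43) and 0.14 (SE 0.28). Polr1b, the other catalytic subunit, read 9.2, 30.0 and 8.5 in Rb-null cells, against 3.5, 32.3 and 10.3 in control cells, below the filter. Polr1c, which RNA polymerase III also uses, had 0.04 (SE 0.32), and Polr1e -0.25 (SE 0.35). The interval of Polr1c, -0.69 to 0.77, does not exclude changes of a size like that of Ubtf.

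Taf1d, Nop56 and Ncl share a feature of gene structure. In the RefSeq table, 7 tested members contain snoRNA genes within their span, as host genes whose introns carry guide RNAs do. Taf1d contains 6, Nop56 5, Nop58 4, Gnl3 and Wdr43 3 each, Ncl 2 and Dkc1 1. This grouping was chosen after the values were seen, so it was not tested. Of the 7, 5 were higher in Rb-null cells, with a median log2 fold change of 0.37, against 8 of the 26 members without one, with a median of -0.15. Wdr43 and Dkc1 were the lower ones. After scaling between arrays, the 3 members whose groups did not overlap were Taf1d, Nop56 and Ncl, all higher and all hosts, where 5.13% of all tested genes did not overlap and were higher and 4.78% were lower (9.92% in either direction). In the deposited values without further scaling only Taf1d, 1 of 33, had groups that did not overlap, where 4.64% of all genes were apart and higher and 3.59% apart and lower. The hosts' median was 0.13 without control replicate 3, 0.14 without Rb-null replicate 2 and 0.62 without control replicate 2.

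Hosts outside the members were mixed in direction. Most of them contain only 1 snoRNA gene, as only Dkc1 does among the member hosts. Of 242 other tested genes with at least 1 snoRNA gene inside, 42.1% were higher in Rb-null cells, with a median log2 fold change of -0.06, close to the -0.04 of 12168 genes with none. Among other genes with at least 2, 16 of 31 were higher, with a median of 0.03. Of other genes that contain as many as Nop56 or Nop58, only 2410002F23Rik was higher, at 0.31 (SE 0.43). Eif4a2 had -0.28 (SE 0.52), Rpl4 -0.08 (SE 0.31), Rpl13a -0.25 (SE 0.27) and Rpl7a -0.15 (SE 0.26). Of other genes that contain 3, as Gnl3 and Wdr43 do, only Rpsa was lower, at -0.45 (SE 0.29). Eif4a1 had 0.69 (SE 0.69), Hspa8 0.66 (SE 0.31), Rabggtb 0.49 (SE 0.37) and Ubap2 0.26 (SE 0.43). Among all tested genes with at least 3, members included, 9 of 15 were higher, with a median of 0.26. Over all tested protein-coding genes 45% were higher, with a median of -0.04. No cut by number was tested. The table gives no strand, so some of these snoRNA genes may not be in the host's transcript, and the arrays read the host mRNA, not the snoRNA.

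**Figure D3:**
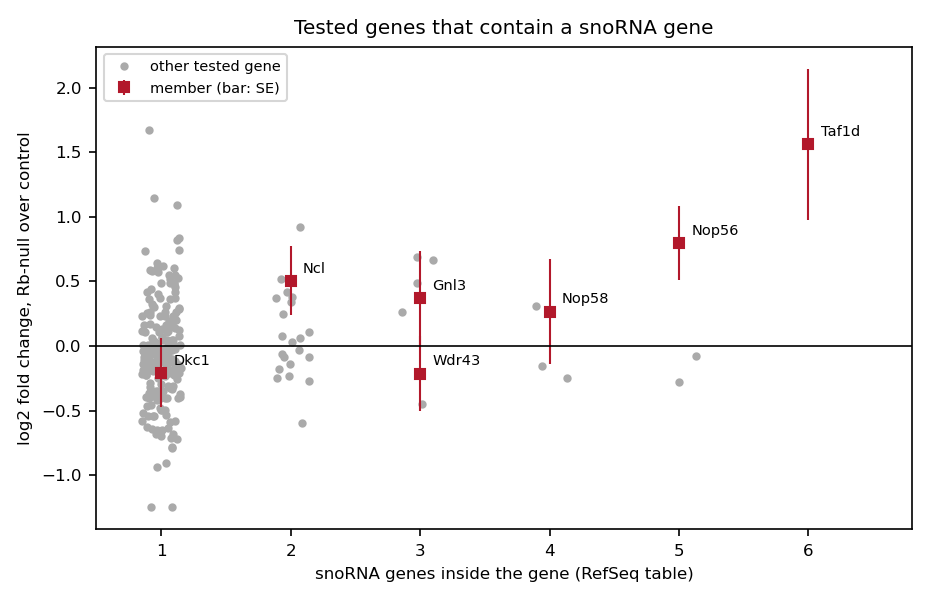
Log2 fold change, Rb-null over control, against the number of snoRNA genes inside each tested gene, with the 7 members as squares (bars are SE) and the 242 other genes as grey points, jittered sideways. Taf1d and Nop56 lie above the other genes with 5 or more, while genes with 1 spread on both sides of 0.

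Replicate number took a larger share of the spread than genotype in most members, as in most genes. The replicate number took a median of 74.2% of a member's sum of squares over the 6 arrays and genotype 9.81%, close to the 69.4% and 9.79% over all tested genes. In 30 of 33 members (90.9%) the replicate share was the larger, against 80.9% of all tested genes, and replicate number has more degrees of freedom than genotype. The exceptions were Nop56, Ncl and Taf1d. In 17 members (51.5%) the array numbered 2 was the highest of its group in both groups, against 16.4% of all tested genes, and in 14 (42.4%) the array numbered 3 was the lowest in both, against 26.2%. Npm1, Ddx21 and Nhp2 were among those with both patterns. Summed granulocyte markers were also highest on the arrays numbered 2 in both groups, 57494 and 57141. So were the sums of the erythroid list and of the mast cell, basophil and eosinophil list, but not those of the other marker lists. The part of cell content in the replicate pattern was not tested. The labels do not say what the numbers mean. Without the arrays numbered 3 the replicate share was the larger in 25 of 33 members (75.8%) and in 60.5% of all tested genes.

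**Figure D4:**
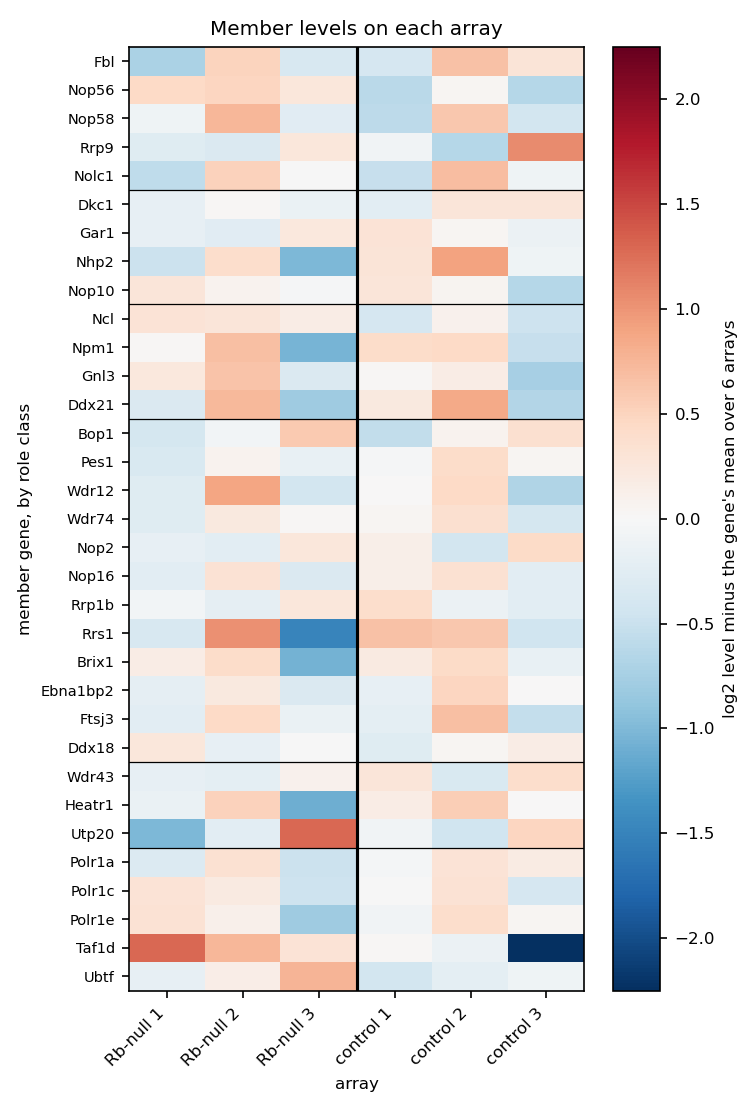
Log2 level of the 33 tested members on each array after scaling, minus the gene's own mean over the 6 arrays, Rb-null arrays at left and control arrays at right, with lines between role classes. Columns of the same replicate number resemble each other more than columns of the same genotype, and Taf1d on control array 3 is the lowest cell.

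Of 150 other ribosome biogenesis genes, listed with results of these data known, 136 were tested. Limma called 0 at an adjusted p under 0.05, 1 had an unadjusted p under 0.05 (Eri1, higher) and, with the replicate block, 21 did, 9 higher and 12 lower, where 7.77% and 9.14% of all tested genes stood. In Rb-null cells 41 were higher and 95 lower (69.9% lower, against 54.6% of all tested genes), with a median log2 fold change of -0.10. Without Rb-null replicate 3 the counts were 64 higher and 73 lower (53.3% lower, against 58.0% of all genes). The median there was -0.01, beside -0.06 over all genes. Without control replicate 2 the counts were 59 higher and 76 lower (56.3% lower, against 56.8% of all genes). The larger share of lower genes thus depends on both of these arrays. The median was -0.06 without control replicate 2 and -0.17 without Rb-null replicate 2 or control replicate 3. Class medians were -0.16 for 12 other RNA polymerase I genes, -0.09 for 49 of the small subunit, -0.08 for 50 of the large subunit, -0.07 for 8 snoRNP assembly factors and -0.25 for 17 exosome subunits and nucleases.

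Eri1, an exonuclease that trims rRNA and histone mRNA ends, read 589, 549 and 301 in Rb-null cells, against 276, 359 and 93.9 in control cells. Its groups overlapped in the deposited values through control array 2 alone, and its log2 fold change was 1.03 (SE 0.40, limma adjusted p = 1.00). With the replicate block, trend and robust moderation limma called Eri1 (adjusted p = 0.0479) and Nop53 (adjusted p = 0.0450), where 3.57% of all tested genes were called. Next among higher genes came Ppan at 0.92 (SE 0.45) and Utp18, of the small subunit processome, at 0.95 (SE 0.47). Among lower genes the smallest p belonged to Fcf1 at -0.48 (SE 0.25), Nop53 at -0.70 (SE 0.36) and Znhit6, a box C/D assembly factor, at -0.49 (SE 0.26). Rrn3, which makes the polymerase ready to start, had -0.02 (SE 0.51), and Tcof1, a partner of Ubtf at rRNA genes, had -0.33 (SE 0.32).

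Among regulators of this pathway, Myc, which drives many of these genes in other tissues, was dim and read 13.2, 42.5 and 11.9 in Rb-null cells, against 26.7, 44.9 and 10.8 in control cells (-0.19, SE 0.38). Mxi1, an antagonist of Myc that also binds Max, read 2887, 3451 and 3750 in Rb-null cells, against 1164, 1451 and 1593 in control cells. Its groups did not overlap (1.20, SE 0.27, limma adjusted p = 0.456, and 0.0844 with the replicate block). Max had -0.03 (SE 0.27) and Mycn 0.20 (SE 0.46). Rpl11, a ribosomal protein that binds Mdm2 when assembly fails, read 575, 1675 and 757 in Rb-null cells, against 671, 2197 and 1428 in control cells, lower in each pair (-0.59, SE 0.49). Mdm2 read 616, 592 and 621 in Rb-null cells, against 349, 390 and 183 in control cells, with no overlap (0.97, SE 0.29, limma adjusted p = 0.755). Rpl5 and Trp53 were not tested. Of 9 listed regulators, only the 7 others had a probe set that carried 1 gene symbol. Rb1 itself read 4045, 3670 and 2897 on arrays labelled Rb-null, against 2760, 2152 and 1379 on control arrays. No source used here places its probe set relative to the floxed part, so it does not check the labels, and each direction above rests on them.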

How the data were processed

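The deposited table holds 1 intensity per probe set and array on a linear scale, never negative. For the step from scans to intensities, and for the scaling of arrays by the authors, a method was not given in the sources used here. Of 45101 probe sets, 64 controls, 4 empty and 1 with a value above a 16-bit scanner were left out. Symbols came from GEO's platform annotation, updated by Entrez ID through RefSeq (34737 of 34941 probe sets with 1 symbol matched). Values were transformed as log2(value + 16) and, as array medians of log2 values differed by up to 0.264 against a limit of 0.2, quantile normalized. The dimmest probe sets, up to the 40th percentile of the mean, were dropped, and the highest-mean probe set stood for a gene. Per-array values in the text are deposited intensities, and fold changes come from normalized log2 values, so they can differ from a ratio of means.

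The contrast of Rb-null over control was fitted by limma 3.58.1 (R 4.3.3), 2-sided, with Benjamini-Hochberg adjustment over all 13232 tested genes and a threshold of 0.05. An exact permutation test of 3 against 3 arrays was not used, as it cannot pass that threshold. Arrays of the same replicate number (from the titles) deviated together from their group means, with correlations of 0.636, 0.615 and 0.653, so pairs are given. Between different numbers the highest was 0.0370. Deviations from a group mean cancel out, so high same-number values push the others down, and 0.0370 is no separate support for pairing. Members, role classes and lists were chosen with earlier results of these data known. Values on every array are given for the 2 members of each role class with the smallest unadjusted p and for Ncl, Npm1, Fbl, Polr1a, Polr1b, Ubtf and Heatr1. Other biogenesis genes are named for up to 3 in each direction with the smallest unadjusted p, and regulators for their roles. Mxi1, Max and Mycn were added after their values were seen.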

Additional observations from a re-analysis of the deposited data

How the results depend on the processing

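With 3 arrays a group, 1 dim array can set a value, and signal over background limits the dimmest members. Over 18 alternatives, 546 of 586 member fold changes kept their sign, 40 had the opposite sign and 0 were called. Ranges over the alternatives were 0.62 to 1.01 for Nop56, 0.37 to 0.68 for Ncl, 0.61 to 1.97 for Taf1d, 0.23 to 0.70 for Ubtf and -1.10 to -0.41 for Nhp2. The replicate block gave 0 called genes and 0 called members. Genes called over the whole table numbered 2 with an offset of 64, 3 with array weights and 473 with the replicate block, trend and robust moderation, which also called 2 other biogenesis genes, Nop53 and Eri1. Leaving out 1 array at a time gave 0 called genes each time, a members' median of -0.14 to -0.033, a median of -0.17 to -0.014 for the other biogenesis genes and of 0.13 to 0.62 for members with a snoRNA gene inside, a grouping chosen after seeing the data.

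Some members had the opposite sign, and the cause was not tested. With the mean of all probe sets Bop1 had -0.21 and Ddx18 -0.16. With array weights Ftsj3 had -0.095 and Utp20 -0.29, and with an offset of 1 Utp20 had -0.16. Without both arrays numbered 3 Ftsj3 had -0.12, Utp20 -0.38, Polr1e 0.060 and Rrp9 0.060. Leaving out 1 array at a time gave -0.18 to 0.30 for Bop1, -0.59 to 0.13 for Brix1, -0.080 to 0.14 for Ddx18, -0.69 to 0.090 for Ddx21, -0.20 to 0.40 for Ftsj3, -0.32 to 0.23 for Nolc1, -0.058 to 0.40 for Nop10, -0.33 to 0.084 for Nop2, -0.043 to 0.62 for Nop58 and -0.62 to 0.24 for Npm1. It gave -0.14 to 0.28 for Polr1c, -0.47 to 0.10 for Polr1e, -0.15 to 0.18 for Rrp1b, -0.61 to 0.24 for Rrp9, -1.18 to 0.067 for Rrs1, -0.62 to 0.54 for Utp20, -0.16 to 0.38 for Wdr12 and -0.21 to 0.16 for Wdr74.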

Other observations

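The tested genes whose levels over the 6 arrays were most like the mean of the members were Cpne3 (r = 0.994), C230091D08Rik (0.994), Gfus (0.990), Wdr46 (0.990), which is itself on the list of other ribosome biogenesis genes, and Dram2 (0.990). These are descriptions over 6 arrays that share the replicate pattern. They are the highest among all tested genes other than the members, which were left out of this ranking. Within the members, 18 of 33 correlated above 0.5 with the mean of the others and 9 below 0. Several probe sets past the filter were present for 20 members, and in 5 of them, Bop1, Ddx18, Nolc1, Polr1a and Rrs1, they differed in sign. For Bop1 the second probe set had -0.50 (SE 0.40).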
